A study of Mus musculus with 6 samples.

Results

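Genes that mark plasma cells and B cells, namely *Jchain*, *Mzb1*, *Xbp1*, *Sdc1*, *Prdm1*, *Irf4*, *Tnfrsf17*, *Derl3*, *Cd79a* and *Cd79b*, were examined in the RNA-seq of sorted LSK cells, the lineage-negative Sca1+ c-Kit+ BM fraction that holds hematopoietic stem and progenitor cells. They were taken by gene name, and all 10 were found among the 54532 genes of the deposited table. The control group (CTRL) was 3 libraries from *Myh9*fl/fl;no cre littermates and the *Myh9*-deficient group (cKO) was 3 libraries from *Myh9*fl/fl;*Mx1-cre* mice, all on a C57BL/6 background. Both groups received poly I:C at 5 mg/kg, in 2 doses by the sample descriptions and 3 by the methods of the paper, at 5 to 6 weeks of age, and 100000 LSK cells were sorted for each library 4 days after the first dose. *Mx1-cre* is driven by an interferon-responsive promoter that poly I:C switches on and that is also active outside blood cells. The floxed allele removes exon 1 of *Myh9*. The labels do not state how many mice gave each cell set, so the p-values measure the spread between these 3 sets in each group.

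Plasma cells are the antibody-secreting end stage of the B lineage. The transcription factors Blimp-1 (encoded by *Prdm1*) and IRF4 establish the plasma cell program, and XBP1 enlarges the endoplasmic reticulum (ER) that makes and exports antibody. *Jchain* encodes the joining chain that links IgA and IgM into polymers, *Mzb1* an ER protein that assists antibody assembly, and *Derl3* a membrane protein of ER-associated degradation, the disposal route for misfolded proteins. *Sdc1* encodes CD138, the surface marker by which plasma cells are sorted, and *Tnfrsf17* encodes BCMA, a receptor for the survival factors APRIL and BAFF. *Cd79a* and *Cd79b* encode the paired signaling chains of the B cell receptor.

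The genes went 3 ways. *Jchain*, *Mzb1*, *Derl3* and *Cd79a* were close to 2-fold higher in *Myh9*-deficient LSKs, by ratios of mean FPKM of 2.11, 1.96, 1.87 and 2.04. *Xbp1* and *Sdc1* were lower, with ratios of 0.801 and 0.682. *Cd79b* did not pass the test in either direction (ratio 0.939). *Prdm1*, *Irf4* and *Tnfrsf17* had too few reads for the main test, with ratios of 1.72, 1.85 and 1.57.

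Values are FPKM, fragments scaled by gene length and sequencing depth, which allow levels to be compared between genes because gene length is divided out. Each library held 17571544 to 19894562 reads on genes. *Myh9* itself measured 22.0 to 23.0 FPKM in control and 17.7 to 20.0 FPKM in *Myh9*-deficient libraries, a small fall (log2 fold change -0.26, adjusted p = 0.0064 by limma), and a value over the whole gene does not measure the removal of exon 1. The markers of the sorted fraction were present, with 23.4 to 24.3 FPKM of *Kit* and 93.2 to 96.7 FPKM of *Ly6a* (Sca1) in control libraries. The 11552 genes that averaged 1 FPKM or more across the 6 libraries were tested with limma on log2(FPKM + 1), and fold changes on this scale understate the change of genes at low levels. With 3 libraries against 3, an exact permutation test of a single gene cannot give a two-sided p below 0.1. In bulk RNA, more cells of a type and more RNA in each cell cannot be told apart.

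Whether LSK cells themselves made the RNA of a gene was not tested. A level of 1 FPKM in control libraries was used to separate genes expressed in these libraries from genes near zero. Above it were 6 genes, in the order *Xbp1* (63.2 FPKM), *Cd79b* (31.1), *Jchain* (30.4), *Mzb1* (4.58), *Sdc1* (3.31) and *Derl3* (1.10). *Cd79a* (0.743), *Tnfrsf17* (0.407), *Irf4* (0.161) and *Prdm1* (0.0880) were below it, so *Derl3* lay just inside the limit and *Cd79a* just outside. The only neighbors in this order whose control libraries overlapped were *Cd79b* and *Jchain*. In *Myh9*-deficient LSKs, *Jchain* took the top place at 64.0 FPKM, with every library above those of *Xbp1*, and the only neighbors that overlapped were *Sdc1* and *Derl3*. *Jchain*, *Xbp1* and *Cd79b* together made up 92.1% to 92.6% of the summed FPKM of the 10 genes in control libraries and 89.2% to 90.5% in *Myh9*-deficient ones.

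**Figure D1:**
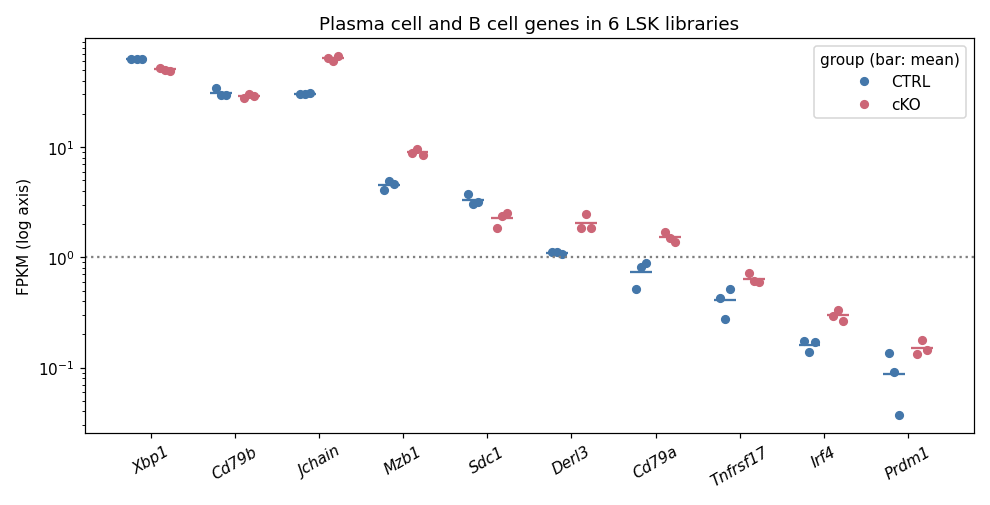
FPKM on a log axis of the 10 genes in each of the 3 CTRL and 3 cKO libraries (points) with the mean of each group (bar), and a dotted line at 1 FPKM. All cKO points of *Jchain*, *Mzb1*, *Derl3*, *Cd79a*, *Tnfrsf17* and *Irf4* lie above the CTRL points, those of *Xbp1* and *Sdc1* lie below, and those of *Cd79b* and *Prdm1* overlap.

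Of the 10 genes, 7 passed the filter on low values. Of these, 4 were higher and 2 lower with an adjusted p under 0.05, where 19.9% of all genes tested were higher and 20.6% lower by the same rule. *Cd79a* passed the filter only through its level in *Myh9*-deficient libraries, so its presence among the genes tested is not independent of its difference. At the thresholds of the study, more than 2-fold with an unadjusted p under 0.05, taken here on log2(FPKM + 1), *Jchain* alone was called higher and no gene lower, against 1.43% higher and 0.701% lower among all genes tested. *Cd79a*, with a ratio of mean FPKM of 2.04, fell short of 2-fold on this scale. It also fell short with 0.1 in place of 1 added to the FPKM (log2 fold change 0.97). Control and *Myh9*-deficient libraries were fully separated for 8 of the 10 genes, and for 6 of the 7 tested, which holds for 54% of all genes tested.

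Among the secreted and ER proteins, *Jchain* (ENSMUSG00000067149, chromosome 5 from 88519809 to 88527891, minus strand, mm10) changed most. Control libraries had 30.3, 30.1 and 30.8 FPKM and *Myh9*-deficient libraries 64.6, 60.1 and 67.3 FPKM. The lowest *Myh9*-deficient library thus stood 29.3 FPKM above the highest control library, and the control libraries hardly differed among themselves (coefficient of variation 1.14%). The log2 fold change was 1.05 with a standard error of 0.044 (adjusted p = 1.4e-05, limma), higher than that of 98.6% of genes tested. These values rest on 1334 to 1518 reads in a control and 2758 to 3151 reads in a *Myh9*-deficient library.

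*Mzb1* (ENSMUSG00000024353, chromosome 18) stood at 4.11, 4.95 and 4.66 FPKM in control and 8.91, 9.51 and 8.55 FPKM in *Myh9*-deficient libraries. The groups were 3.60 FPKM apart at their nearest, and the difference exceeded the spread between replicates (adjusted p = 2.2e-04 by limma for a log2 fold change of 0.84 with standard error 0.069). The authors normalized *Mzb1* over 905 bases, whereas its exons cover 1215 bases in GENCODE M21. This affects its level and, on log2(FPKM + 1), its fold change, but not its ratio of mean FPKM.

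*Derl3* (ENSMUSG00000009092, chromosome 10 from 75893413 to 75895941, plus strand) measured 1.11, 1.11 and 1.07 FPKM in control libraries and 1.85, 2.45 and 1.86 FPKM in *Myh9*-deficient libraries. The second *Myh9*-deficient library was the high one, and the other two still exceeded every control library. The log2 fold change was 0.54 with a standard error of 0.094 (adjusted p = 0.0049, limma), and 0.90 when voom was applied to the reads recovered from the FPKM values, which adds no pseudocount of this size. The related genes *Derl1* and *Derl2* did not pass the test. *Derl1* had 43.6 ± 2.05 (SD, n = 3) FPKM in control and 45.3 ± 2.13 in *Myh9*-deficient LSKs, and *Derl2* had 5.63 ± 0.349 and 5.85 ± 0.236.

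Within a library, *Jchain* kept its proportion to *Mzb1*, and *Mzb1* to *Derl3*. These pairs were chosen, like the other ratios given here, after their values were seen. The ratio of *Jchain* to *Mzb1* was 6.07 to 7.38 in control libraries and 6.32 to 7.87 in *Myh9*-deficient ones, and that of *Mzb1* to *Derl3* was 3.70 to 4.46 and 3.88 to 4.82. Both pairs of ranges overlapped. The ratio of *Jchain* to *Xbp1*, by contrast, was 0.475 to 0.489 in control libraries and 1.21 to 1.36 in *Myh9*-deficient ones, with no overlap. That of *Jchain* to *Derl3* was 27.1 to 28.7 in control libraries. In *Myh9*-deficient ones it was 35.0, 24.5 and 36.2, each outside the control range.

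*Jchain* kept its proportion to some constant segments of antibodies and not to others. Of 12 immunoglobulin constant genes, 9 were tested, 8 rose and 1 fell. Their median log2 fold change was 1.06, against -0.0096 over all genes tested. Among those tested, the largest log2 fold changes upward were those of *Ighg2b* (from a mean of 3.68 to 16.6 FPKM), *Iglc3* and *Iglc2*. Below the filter, *Ighe* had 1 read over the 3 control and 40 over the 3 *Myh9*-deficient libraries, and *Ighg3* had 2 and 41, both named after their values were seen. *Igkc*, *Igha* and *Ighm* were set beside *Jchain* after their values were seen. *Igkc*, the kappa light chain, was 13.5 to 14.1 times *Jchain* in control libraries and 13.5 to 14.2 times in *Myh9*-deficient ones, and *Igha*, the heavy chain of IgA, was 4.20 to 4.28 and 3.97 to 4.24 times. *Ighm*, the heavy chain of IgM, went the other way, from 3.27 to 3.34 times *Jchain* down to 0.873 to 0.969 times. How reads were shared between near-identical immunoglobulin segments is not given in the sources used here.

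**Figure D2:**
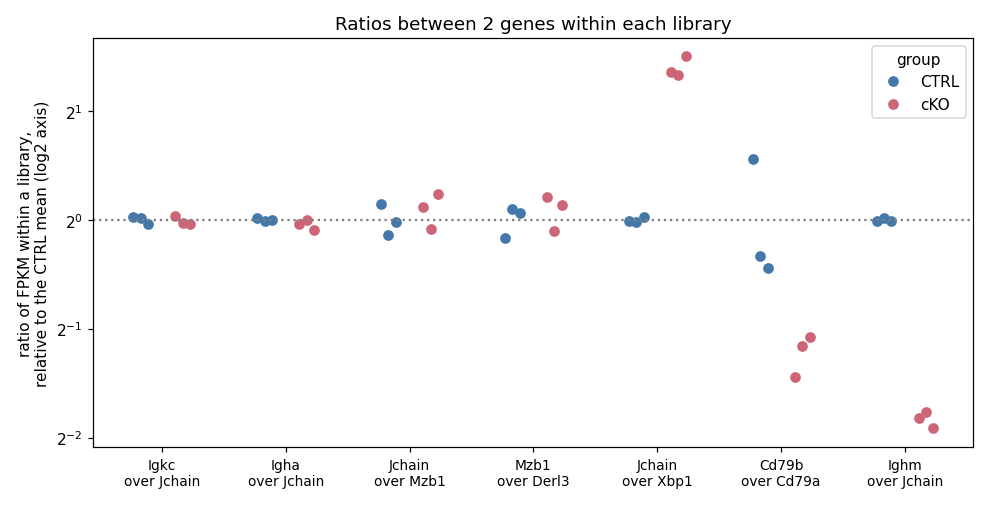
Ratio of the FPKM of 2 genes within each library, divided by the mean ratio of the 3 CTRL libraries, on a log2 axis (points, 3 libraries in each group). The CTRL and cKO points overlap for *Igkc* and *Igha* over *Jchain*, *Jchain* over *Mzb1* and *Mzb1* over *Derl3*, and lie apart for *Jchain* over *Xbp1*, *Cd79b* over *Cd79a* and *Ighm* over *Jchain*.

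*Xbp1* (ENSMUSG00000020484, chromosome 11 from 5520659 to 5525893, plus strand) was the most abundant of the 10 genes in control LSKs. It measured 63.5, 63.3 and 62.9 FPKM in control and 52.5, 49.8 and 49.5 FPKM in *Myh9*-deficient libraries. Every *Myh9*-deficient library was lower, by at least 10.3 FPKM, and the mean changed by -19.9% (adjusted p = 4.3e-04 by limma for a log2 fold change of -0.32 with standard error 0.031). XBP1 is made active by splicing of its mRNA by IRE1, which a value per gene does not show.

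*Ern1*, which encodes IRE1, fell from 9.13 ± 0.268 to 5.24 ± 0.0436 FPKM (SD, n = 3; log2 fold change -0.70, adjusted p = 5.1e-05, limma). All 24 genes listed as responsive to XBP1 or its fellow ER stress factor ATF6 were tested. Of these, 20 fell, none was called higher and 4 did not pass, with a median log2 fold change of -0.27. *Ern1* and the gene of ATF6 are themselves among those that fell. *Dnajb9*, an ER co-chaperone, fell from 18.7 to 11.5 FPKM and *Pdia4*, a protein disulfide isomerase, from 98.1 to 64.6 FPKM. Of 18 genes of ER-associated degradation, the pathway of *Derl3*, 6 fell and 12 did not pass. The falls were led by *Os9*, a lectin that delivers misfolded glycoproteins (111 to 92.2 FPKM), and *Edem1* (13.2 to 10.8) and *Edem2* (38.1 to 32.0), which trim their sugars. In the main fit, *Derl3* thus rose while no other gene of its pathway list was called higher. With a replicate block, or with voom with or without the filter, 1 of the 18 was called higher.

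Among other plasma cell and secretory genes, 21 of 22 listed were in the file and 14 were tested, of which 4 rose and 8 fell (median -0.15). *Fkbp11*, a peptidyl-prolyl isomerase of secretory cells, had 4.50 to 4.66 FPKM in control LSKs and 8.54 to 9.79 FPKM in *Myh9*-deficient LSKs (adjusted p = 8.2e-05 by limma, log2 fold change 0.85). *Ell2*, an elongation factor that favors the secreted form of antibody mRNA, rose from 0.967 to 1.65 FPKM, and *Ssr4*, a subunit at the ER translocon, from 102 to 121 FPKM. *Ell2* passed the filter on low values only through its level in *Myh9*-deficient libraries. *Dnajb9*, *Pdia4* and *Sdf2l1*, all also in the XBP1 and ATF6 list, fell most, *Sdf2l1* from 200.1 to 144.4 FPKM. The lists share several genes and their counts are therefore not independent.

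**Figure D3:**
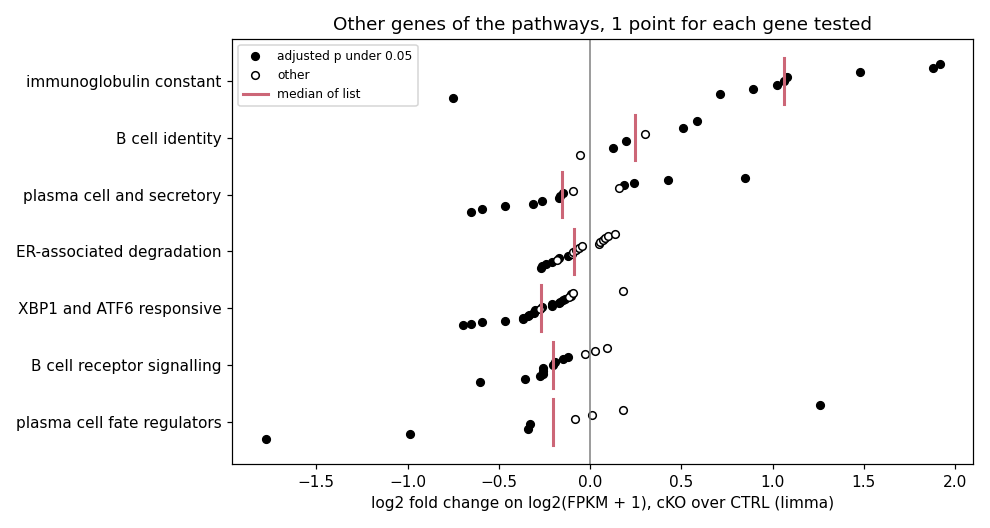
Log2 fold change, cKO over CTRL on log2(FPKM + 1), of the tested genes of 7 lists (points, filled where the adjusted p was under 0.05) with the median of each list (vertical bar). Immunoglobulin constant genes lie to the right except for *Ighm*, and the called XBP1 and ATF6 responsive genes all lie to the left of 0.

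In the main fit, *Derl3* rose while no other gene of its pathway list was called higher. For this reason, the sequences before the transcription starts of 3 genes that rose are shown. They were taken from RefSeq (GRCm38.p6, the build of mm10), from 250 bases before to 50 bases after the start, and 8 of the 10 genes had an entry, all but *Mzb1* and *Cd79b*. Capitals mark matches, on either strand, to ACGTG (the core bound by XBP1 and ATF6), CCACG and CCAAT (the parts of the ER stress element), or GAAANNGAA (bound by interferon regulatory factors). ACGTG and CCACG can overlap. The regions are chr5:88527848-88528147 on the minus strand for *Jchain*, chr10:75893148-75893447 on the plus strand for *Derl3* and chr7:24897247-24897546 on the plus strand for *Cd79a*.
*Jchain*: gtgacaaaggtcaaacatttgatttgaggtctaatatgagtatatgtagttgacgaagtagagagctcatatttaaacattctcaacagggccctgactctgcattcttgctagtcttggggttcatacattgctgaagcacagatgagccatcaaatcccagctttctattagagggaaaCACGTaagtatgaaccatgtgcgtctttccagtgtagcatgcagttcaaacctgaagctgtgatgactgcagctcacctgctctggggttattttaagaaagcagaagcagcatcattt
*Derl3*: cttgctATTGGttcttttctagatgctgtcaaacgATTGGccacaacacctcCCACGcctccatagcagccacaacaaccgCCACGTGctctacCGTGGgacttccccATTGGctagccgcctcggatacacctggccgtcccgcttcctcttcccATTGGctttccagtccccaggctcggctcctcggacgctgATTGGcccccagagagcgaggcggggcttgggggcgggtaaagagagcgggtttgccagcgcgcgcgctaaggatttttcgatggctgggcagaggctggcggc
*Cd79a*: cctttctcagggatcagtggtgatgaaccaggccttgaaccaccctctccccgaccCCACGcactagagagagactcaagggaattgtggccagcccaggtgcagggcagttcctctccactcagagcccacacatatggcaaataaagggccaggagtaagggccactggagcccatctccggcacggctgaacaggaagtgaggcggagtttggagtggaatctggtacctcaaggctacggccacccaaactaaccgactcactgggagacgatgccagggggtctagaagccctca

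The *Derl3* sequence holds CCAAT and CCACG on the minus strand with 9 bases between them, the spacing of the ER stress element, at positions -156 to -138 from the start. This pair of motifs at this spacing was searched after the sequences were seen, and 35 of 27025 promoters (0.13%) hold it. None of the other 7 genes with an entry does. In the list of XBP1 and ATF6 responsive genes, 7 of the 20 with an entry hold it, *Hspa5*, *Calr*, *Hsp90b1*, *Pdia6*, *Dnajc3*, *Creld2* and *Syvn1*, and these 7 fell in *Myh9*-deficient LSKs. Among all promoters with the pair, 14 genes were tested, of which 9 fell, 3 did not pass and 2 rose, *Derl3* and *Xlr3b*. ACGTG alone was in *Jchain* at position -69 and in *Derl3*, and is in 19.7% of all promoters. CCACG was in 5 of the 8 genes (32.7% of all promoters), CCAAT in 3 (37.9%), GAAANNGAA in *Tnfrsf17* alone (8.6%), the octamer ATTTGCAT in none (1.8%) and CACGTG, which holds ACGTG, in *Derl3* (7.2%).

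Of the surface proteins, *Sdc1* (ENSMUSG00000020592, chromosome 12 from 8771323 to 8793715) had 3.72, 3.05 and 3.16 FPKM in control and 1.85, 2.39 and 2.54 FPKM in *Myh9*-deficient libraries. The groups did not overlap, though only 0.515 FPKM separated them, and the log2 fold change was -0.41 with a standard error of 0.10 (adjusted p = 0.020, limma). Without CTRL replicate 1, the highest control library, the adjusted p was 0.066. It was also above 0.05 without the filter on low values, at 0.0592. CD138, its product, thus had less RNA where *Jchain* and *Mzb1* had more.

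*Tnfrsf17* (ENSMUSG00000022496, chromosome 16) had 7, 4 and 8 reads in control libraries (0.432, 0.278 and 0.511 FPKM) and 11, 9 and 9 reads in *Myh9*-deficient libraries (0.721, 0.606 and 0.593 FPKM). The groups did not overlap, but the reads differ by few, and without a filter the adjusted p was 0.13. The other receptors of APRIL and BAFF were more abundant and moved apart. *Tnfrsf13b* (TACI) fell from 26.2 ± 0.434 to 20.8 ± 0.201 FPKM (SD, n = 3; log2 fold change -0.31, adjusted p = 3.4e-04, limma), and *Tnfrsf13c* (BAFF receptor) rose from 1.25 ± 0.247 to 2.19 ± 0.204 FPKM (adjusted p = 0.0086, log2 fold change 0.51).

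The transcription factors of the plasma cell program were the least abundant genes. *Irf4* (ENSMUSG00000021356, chromosome 13) had 17, 12 and 16 reads in control and 27, 30 and 24 reads in *Myh9*-deficient libraries, or 0.139 to 0.174 and 0.263 to 0.336 FPKM. The *Myh9*-deficient libraries were all higher. Without a filter on low values its adjusted p was 0.036 on log2(FPKM + 1), with a log2 fold change of 0.16, and 0.0973 with voom on recovered reads. *Prdm1* (ENSMUSG00000038151, chromosome 10) had 15, 9 and 4 reads in control and 14, 18 and 15 reads in *Myh9*-deficient libraries, and the groups overlapped. The third control library was the low one, and the log2 ratio of means, 0.79, was 0.42 without it and 1.24 without CTRL replicate 1. At this depth no difference in *Prdm1* was detectable (adjusted p = 0.26 without a filter, limma).

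Of 16 factors that promote or restrain the plasma cell fate, 8 were tested, 4 fell and 1 rose. Of the 8 under the filter, 4 had a higher mean in *Myh9*-deficient libraries. With a replicate block, or with voom and the filter, 2 were called higher and 4 lower. Without the filter, 2 were called higher and 5 lower, and with voom without the filter 4 and 5. *Irf8*, a relative of *Irf4* that favors myeloid and germinal center fates, fell from 52.1 ± 0.553 to 14.5 ± 1.07 FPKM (SD, n = 3; log2 fold change -1.78, adjusted p = 3.8e-06, limma), *Id3* from 3.07 to 1.06 FPKM and *Spi1* from 107 to 84.6 FPKM. *Id2* rose from 3.27 to 9.17 FPKM. *Pax5*, which defines B cells and is shut off in plasma cells, had no read in any control library and 9 reads in all in *Myh9*-deficient libraries. *Pou2af1*, the coactivator of antibody genes, was named after its values were seen, with 0.307 to 0.512 FPKM in control and 0.759 to 1.49 FPKM in *Myh9*-deficient libraries.

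The paired chains of the B cell receptor did not move together. *Cd79a* (ENSMUSG00000003379, chromosome 7 from 24897381 to 24902197) had 0.518, 0.818 and 0.894 FPKM in control and 1.69, 1.51 and 1.36 FPKM in *Myh9*-deficient libraries, on 15 to 25 and 37 to 46 reads. All 3 *Myh9*-deficient libraries were higher (adjusted p = 0.0094 by limma for a log2 fold change of 0.54 with standard error 0.11, which voom put at 1.07). *Cd79b* (ENSMUSG00000040592, chromosome 11 from 106311341 to 106314762, minus strand) had 34.3, 29.4 and 29.6 FPKM in control and 28.0, 30.4 and 29.3 FPKM in *Myh9*-deficient libraries. The groups overlapped, and the 95% interval of the log2 fold change ran from -0.24 to 0.070 (adjusted p = 0.34, limma). *Cd79b* was thus 33.2 to 66.3 times as abundant as *Cd79a* in control libraries and 16.6 to 21.5 times in *Myh9*-deficient ones.

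**Figure D4:**
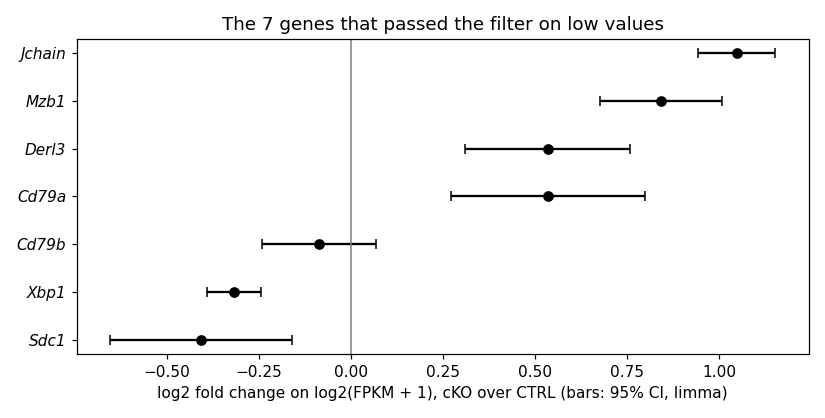
Log2 fold change, cKO over CTRL on log2(FPKM + 1), of the 7 genes that passed the filter on low values (points) with 95% confidence intervals from limma (bars). The intervals of *Jchain*, *Mzb1*, *Derl3* and *Cd79a* lie above 0, those of *Xbp1* and *Sdc1* below, and that of *Cd79b*, from -0.24 to 0.070, spans 0.

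The defining B cell genes were at or near 0 in both groups. *Ms4a1* (CD20) had 1 read over the 3 control and 5 over the 3 *Myh9*-deficient libraries, and *Ebf1* had 9 and 2. Of 28 B cell identity genes, 6 were tested and 4 rose, among them *Cd72*, a coreceptor (4.16 to 6.72 FPKM), *Tnfrsf13c* and *Dntt*, the terminal transferase of early lymphoid progenitors (58.3 to 66.8 FPKM). Of the 22 B cell identity genes under the filter, 13 had a higher mean in *Myh9*-deficient libraries, and without the filter 7 of the 28 were called higher and 1 lower. Of 16 signaling genes that act behind CD79 in B cells 13 were tested, and 10 fell while none was called higher, led by *Pik3cd* (29.95 to 19.3 FPKM), *Vav1* (55.3 to 42.9 FPKM) and *Inpp5d* (19.6 to 16.0 FPKM). Without cKO replicate 1 only 6 fell, and 1 was called higher with median-of-ratios scaling, with voom or without the filter.

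Markers of other cells moved between the groups as well. Of 11 T and NK cell markers, 2 were tested and both rose, *Il2rb* from 0.312 to 2.23 FPKM and *Lck* from 3.44 to 5.12 FPKM, and 8 of the 9 under the filter had a higher mean in *Myh9*-deficient libraries. *Il2rb* passed the filter only through its level in *Myh9*-deficient libraries, and 1 of these 2 calls was lost without CTRL replicate 1, 2 or 3 or cKO replicate 3, while 7 markers were called higher without the filter. The summed level of the 11 was 5.31 to 6.27 FPKM in control and 13.3 to 15.3 FPKM in *Myh9*-deficient libraries, with *Cd3e* at 0 in every control library and *Cd8a* at 0 in every *Myh9*-deficient library. Of 14 markers of plasmacytoid dendritic cells, which also express *Mzb1*, 9 were tested and 4 fell, *Ly6c2* (361 to 131 FPKM) and *Lair1* the most, and none was called higher. Without CTRL replicate 3, without cKO replicate 1 or without the filter, 2 fell. In the alternatives, 1 was called higher without the filter or with moderation without a trend, and 2 with voom without the filter. Of the 5 under the filter, 4 had a higher mean in *Myh9*-deficient libraries. The sum of the 14, most of whose change was that of *Ly6c2*, was 632 to 669 and 382 to 408 FPKM, and *Siglech*, a defining marker, stayed below 0.31 FPKM in every library. Of 7 mature myeloid markers, 5 were tested and 4 fell, with sums of 262 to 274 and 206 to 233 FPKM. Among 7 LSK markers, *Procr* and *Flt3* were among those that rose and *Kit* fell, with sums of 213 to 216 and 222 to 232 FPKM. The lineage antibodies that the methods list for flow cytometry of stem cells were against CD3, CD4, CD8, CD11b, Gr-1, B220 and Ter119. The part of these cells in the values of *Jchain*, *Mzb1*, *Derl3* and *Cd79a* was not tested.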

How the data were processed

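LSK libraries were made and sequenced by a company. Per the labels' processing notes HISAT2 2.0.5 and mm10 were used, and the counting program is not given in the sources used here. The authors deposited FPKM values, gene lengths and coordinates for 54532 genes. The reads behind each value were recovered from FPKM and gene length, and 100% of values in each library came out whole (within 0.05 reads). Genes averaging 1 FPKM or more were tested with limma 3.58.1 (R 4.3.3) on log2(FPKM + 1), lmFit and eBayes with a trend, two-sided, with Benjamini-Hochberg adjustment over 11552 genes, and the code was tested on simulated data. Motifs were searched in RefSeq promoters with Python 3.11.15. Deviations of same-numbered libraries from their group means correlated by -0.026 to -0.0046, so the numbers do not pair the libraries.

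The 10 genes and the lists were chosen with earlier results of these data known. The text names the 10 genes, *Myh9*, up to 3 called genes of a list in each direction and its defining markers near 0, and it says where others were added. Counting error limits *Prdm1*, *Irf4*, *Tnfrsf17* and *Cd79a* most. Alternatives were a pseudocount of 0.1, other filters, median-of-ratios and TPM scaling, moderation without a trend, a replicate block, each library left out, and voom, of which voom without a filter was added after seeing the data. Some marker genes are not reported here.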

Additional observations from a re-analysis of the deposited data

How the results depend on the processing

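The calls of *Jchain*, *Mzb1*, *Derl3*, *Cd79a* and *Xbp1*, and the lack of a call for *Cd79b*, held in each alternative that tested them, with log2 fold changes of 1.01 to 1.09, 0.78 to 1.00, 0.44 to 0.90, 0.44 to 1.07, -0.34 to -0.30 and -0.12 to -0.014. *Sdc1* kept its direction but not its call in 3 alternatives. Its log2 fold change was -0.41 in the fit without the filter on low values (adjusted p = 0.0592, limma) and -0.41 with the replicate block (adjusted p = 0.0565), and ran from -0.47 to -0.31 with 1 library left out, where it was lost without CTRL replicate 1. The count of lower genes among the 10 was therefore 1 in place of 2 without the filter and with the replicate block, and 1 to 2 with 1 library left out. With a mean of at least 5 FPKM, which leaves fewer genes tested, 2 of the 10 were higher and 1 lower. With voom on recovered reads, with or without the filter, 2 of the 10 were more than 2-fold higher in place of 1. Over all other listed genes, the 22 higher became 35 without the filter and 43 with voom without the filter, both of which test more genes, and 27 with voom and the filter. The block changed no other call of the 10 genes, and the replicate numbers did not pair the libraries. Of 360 recounts of single lists, 328 stayed within 1.5 times the count given, where counts of 0 that stayed at 0 are included. Also included is the change from 20 to 14 lower genes in the XBP1 and ATF6 list without CTRL replicate 1.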

Other observations

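The genes whose log2(FPKM + 1) over the 6 libraries was most like that of *Jchain* were *Snrpd1*, *Dap3* and *Per1*, with Pearson r of 0.9997, 0.9996 and 0.9995. The libraries form separate groups, so these values mostly restate the gap between control and *Myh9*-deficient LSKs. For *Cd79b*, the nearest genes were *Mastl*, *Slc16a6* and *Faap100*, with r of 0.989, 0.9751 and 0.973. *Fkbp11*, set beside *Mzb1* after its values were seen, followed it within a library, at 0.940 to 1.09 times its FPKM in control and 0.944 to 1.15 times in *Myh9*-deficient libraries.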
